A study of Mus musculus with 94 samples.

Results

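Tubules of the renal medulla were compared between entospletinib- and vehicle-treated mice on day 14 after ischemia-reperfusion injury (IRI). Digital spatial profiling (DSP) segments were taken into the comparison when their label gave the medulla, the PanCK stain and a day 14 treatment group. That gave 8 of the 94 segments of the series, 4 from vehicle-treated and 4 from entospletinib-treated kidneys. All were from male C57BL/6 mice with IRI of 1 kidney. Entospletinib, an inhibitor of spleen tyrosine kinase (SYK), or its vehicle was injected into the peritoneum before the injury, and per the study's methods entospletinib was given repeatedly until day 14. The labels and the methods differ on the interval between the first dose and the injury. Control segments came from uninjured kidneys, and the labels describe contralateral kidneys as the internal controls.

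The outer medulla holds the straight part of the proximal tubule and the thick ascending limb of the loop of Henle, and collecting ducts run through it. These tubules do much oxygen-consuming salt transport in a poorly oxygenated part of the kidney, and they are known for their sensitivity to ischemia. SYK is a kinase that relays signals from immunoreceptors and is found mostly in leukocytes. After ischemia, tubules can regain their differentiated state or stay injured beside inflamed and scarring interstitium. The comparison asks how far tubular expression in the medulla differed between entospletinib- and vehicle-treated kidneys at the last time point.

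In DSP, probes with barcodes are hybridized to a tissue section, and UV light releases the barcodes from a chosen area, in which they are counted. A segment is the part of a region of interest (ROI) that carries a stain, here PanCK with or without CD10 for tubules. Counts of 20175 probes were available. Probes are named by identifier, since no source used here pairs them with genes, and the genes behind them and the markers of nephron segments were therefore not analysed here. The design names 2 mice per condition and time point, and the labels hold 2 prefixes per group, which were taken as 2 sections without a label that ties a prefix to a mouse. The day 14 sections had 2 medullary regions each. The other groups had 1 medullary region per section. Counts were summed over the regions of a section, so that n = 2 sections per group, and p-values measure the spread between sections.

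The 8 segments held between 588814 and 8541839 counts, with a sequencing saturation of 72.7% to 78.7%. The lowest total belonged to ROI 014 in vehicle section 1, whose other region, ROI 015, held 4812779 counts. The sum of this section therefore rested mostly on 1 region. The other 6 segments held between 4446048 and 8541839 counts. The section sums were 5401593 and 10864351 with vehicle and 14254882 and 13292833 with entospletinib.

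Expression in medullary tubules differed widely between the groups on day 14. Of 20175 probes, 828 were called higher and 852 lower with entospletinib, together 1680 or 8.33% of the probes tested. To be called, a probe needed a Benjamini-Hochberg adjusted p under 0.05 in the quasi-likelihood test of edgeR and more than a 2-fold difference. The adjusted p alone was under 0.05 for 1822 higher (9.03%) and 1387 lower (6.87%) probes. The median log2 fold change was 1.48 among the higher and -1.46 among the lower probes. The largest called changes were 4.68 and -4.75 on the log2 scale. A log2 fold change above 2 was seen for 221 of the higher probes and one below -2 for 193 of the lower probes. Beyond 3, there were 35 higher and 42 lower probes.

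The balance between higher and lower calls depended on how the sums were scaled. With upper quartile normalization, the median log2 fold change over all 20175 probes was 0.36. With edgeR's trimmed mean of M values (TMM) it was 0.06, and 403 probes were called higher (2.0%) and 1416 lower (7.02%), in all 9.02%. DESeq2 on the same sums called 480 higher (2.38%) and 1477 lower (7.32%), with a median of 0.05. When only the fold threshold was set around the median of all probes, 503 passed above and 1306 below that median. The adjusted p-values still tested for a difference from 0. All 852 lower calls were also made in the same direction with TMM and with DESeq2, whereas this held for 397 of the 828 higher calls. Both scalings moved the median fold change down, which carries lower probes away from the threshold and higher probes towards it. This contrast is therefore partly built in and does not show that the lower calls are the firmer ones. All alternatives reuse the same counts, so the agreement between them is no independent test. Across the main test and the 22 alternatives, 181 probes were called higher and 408 lower every time, and 0 of the 1680 probes were called in opposite directions.

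**Figure D1:**
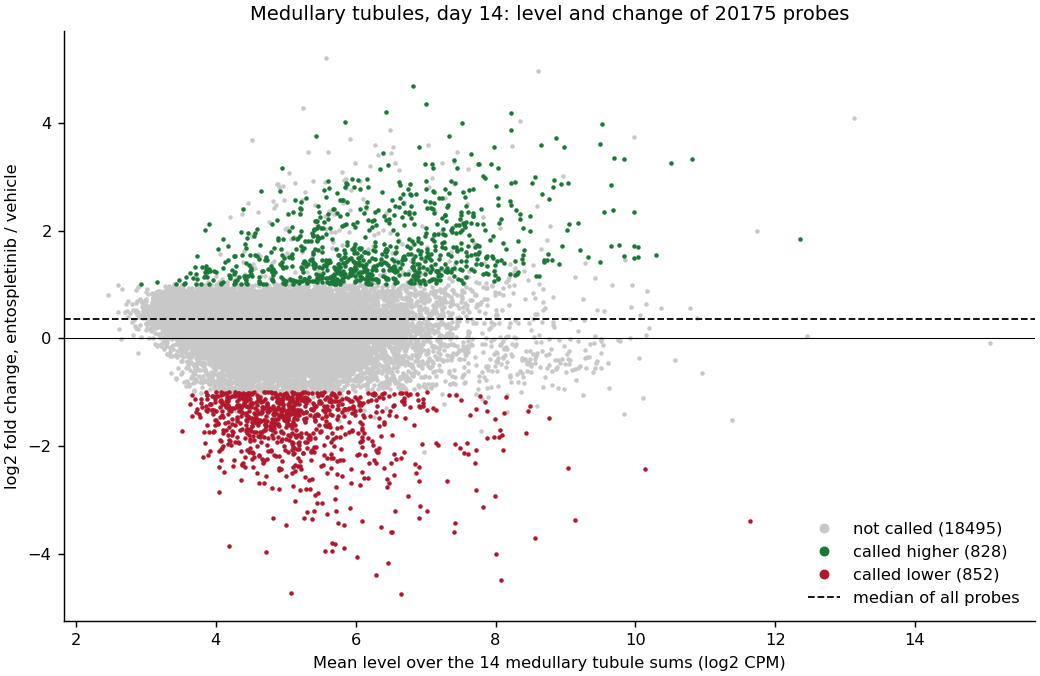
Each point is 1 of 20175 probes, with its mean level over the 14 medullary tubule sums on the x axis (log2 CPM) and its log2 fold change of entospletinib over vehicle on day 14 on the y axis. The 828 probes called higher lie mostly at high levels, the 852 called lower spread over middle and high levels, and the dashed median of all probes sits at 0.36.

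The probes called higher were mostly abundant ones. When probes were divided into 4 classes of equal size by their mean level over all medullary tubule sums, 632 of the 828 higher calls (76.3%) fell in the top class, in which the levels were 42.4 CPM (counts scaled to a common library size) or more. The lower calls were spread more evenly, with 298 (35.0%) in the top class, 306 (35.9%) in the next and 206 (24.2%) in the third. The lowest class, with mean levels of 15.9 CPM or less, held 30 higher and 42 lower calls. In the top class 18.4% of the probes were called, and in the lowest 1.43%.

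For the 4 probes with the strongest evidence in either direction, levels were followed region by region. CPM are scaled by the upper quartile here and throughout. Probe RTS0063074 had 254.8 and 532.4 CPM in the regions of vehicle section 1 and 386.4 and 600.3 in those of vehicle section 2. With entospletinib it had 27.9 and 28.3 CPM in section 1 and 27.6 and 41.5 in section 2. The 4 vehicle regions were all above the 4 entospletinib regions, and the shallow ROI 014 was the lowest of the vehicle regions. Its section sums had 507.9 ± 6.5 CPM (SD, n = 2) with vehicle and 30.4 ± 3.2 with entospletinib, beside 30.3 ± 2.3 in control kidneys. Entospletinib gave a log2 fold change of -4.06 with a standard error of 0.34 (adjusted p = 2.46e-05 by edgeR).

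Probe RTS0064428 followed the same order. It had 135.8 and 640.0 CPM in the regions of vehicle section 1, 296.8 and 469.4 in those of vehicle section 2, 28.4 and 33.5 in entospletinib section 1 and 32.7 and 32.1 in entospletinib section 2. The groups did not overlap, and the vehicle regions spread far more widely than the entospletinib regions. Its sums had 492.8 ± 133.2 CPM (SD, n = 2) with vehicle, 31.9 ± 0.77 with entospletinib and 25.3 ± 2.1 in control kidneys. This was a log2 fold change of -3.95 with a standard error of 0.33 (adjusted p = 2.46e-05 by edgeR). In control kidneys and in entospletinib-treated kidneys on day 14, both probes lay between the 44.0th and the 65.4th percentile of all probes, and in vehicle-treated kidneys at the 99.1th percentile or above.

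Probe RTS0073467 was higher with entospletinib. It had 33.6 and 19.2 CPM in the regions of vehicle section 1, 31.5 and 14.6 in those of vehicle section 2, 125.2 and 140.9 in entospletinib section 1 and 114.7 and 92.7 in entospletinib section 2. Every entospletinib region was above every vehicle region. The sums had 20.9 ± 0.31 CPM (SD, n = 2) with vehicle, 120.6 ± 19.6 with entospletinib and 118.6 ± 25.6 in control kidneys. This was a log2 fold change of 2.52 with a standard error of 0.28 (adjusted p = 6.81e-05 by edgeR).

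Probe RTS0067300 had 29.0 and 9.7 CPM in the regions of vehicle section 1, 16.5 and 10.6 in those of vehicle section 2, 46.8 and 49.0 in entospletinib section 1 and 39.2 and 42.0 in entospletinib section 2. The groups did not overlap, and ROI 014 was again the vehicle region nearest to the entospletinib regions. The sums had 12.3 ± 0.79 CPM (SD, n = 2) with vehicle, 44.2 ± 5.6 with entospletinib and 56.6 ± 1.3 in control kidneys. This was a log2 fold change of 1.84 with a standard error of 0.21 (adjusted p = 9.19e-05 by edgeR). None of the 22 alternatives took away the call of any of these 4 probes or turned its direction. The probes were picked for small adjusted p-values in the same data. Dropping the fold threshold, or the filter on low counts, which removed no probe, could take no call away.

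**Figure D2:**
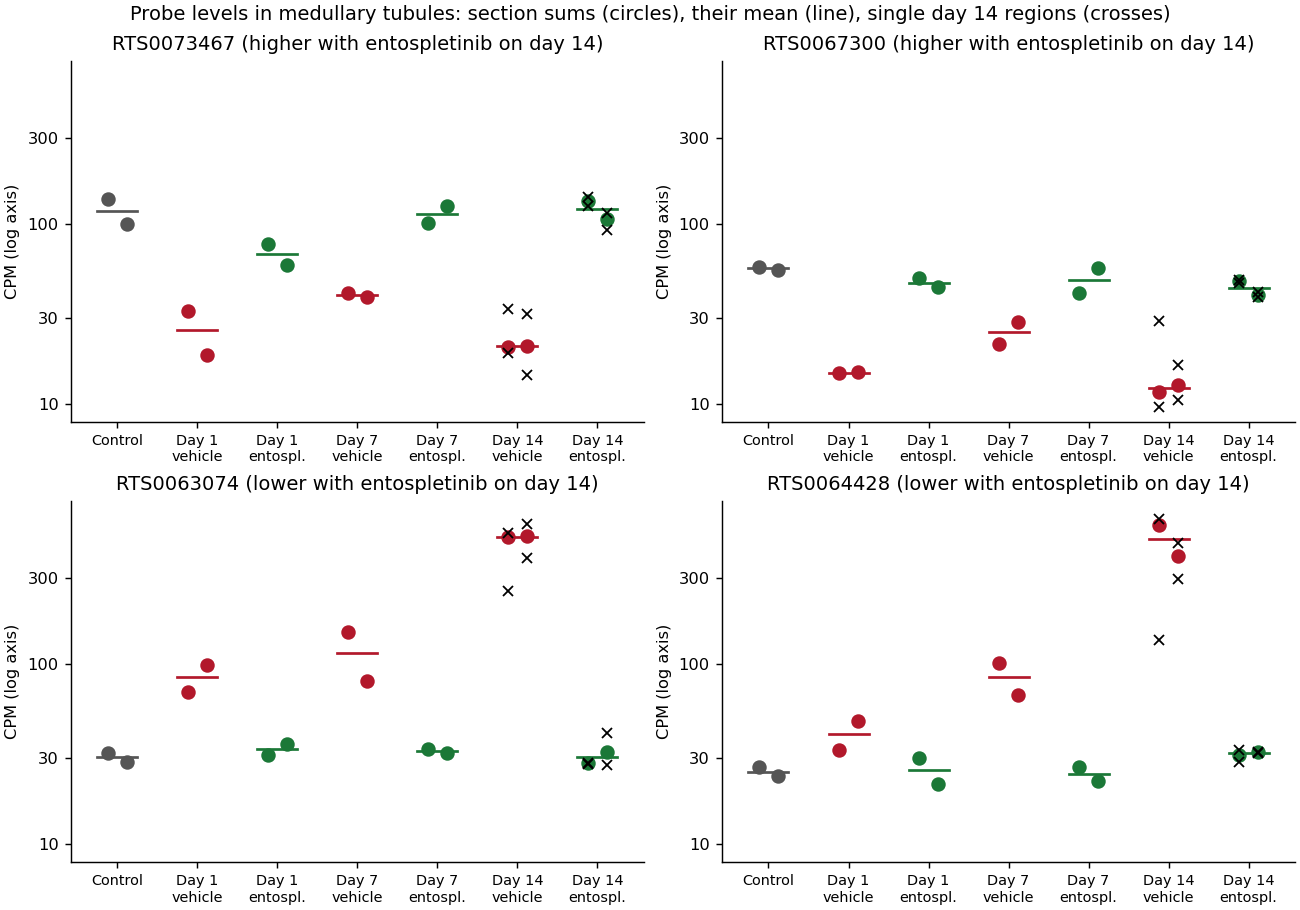
The level of 4 probes in CPM, on a log axis, in medullary tubules of the 7 groups, with the 2 section sums of each group as circles, their mean as a line and the single day 14 regions as crosses. In each panel the 4 entospletinib regions of day 14 sit apart from the 4 vehicle regions and near the control sums.

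The single regions were next compared without summing. For 5740 probes the 4 entospletinib regions were all above the 4 vehicle regions, and for 2420 they were all below, together 40.4% of the 20175 probes. Among the probes called higher, 783 of 828 (94.6%) were separated in this way, where 28.5% of all probes were separated in that direction. Among the probes called lower it was 782 of 852 (91.8%), where 12.0% of all probes were separated. The calls and the separation use the same counts, so this describes how the regions lie and is no further test. Under the upper quartile scaling used here, 71.3% of all probes had a day 14 fold change above 0. The excess of higher over lower separations holds for this scaling and was not counted under another.

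The regions of a group were also compared with each other. Over the probes of a pair of regions, Pearson's r between log2 levels, given as a description, was 0.987 for both pairs of entospletinib regions from the same section. It was between 0.952 and 0.957 for the 4 pairs of entospletinib regions from different sections. Among the vehicle regions it was 0.889 and 0.970 within a section and between 0.880 and 0.968 across sections, and for the 16 pairs of a vehicle and an entospletinib region it was between 0.775 and 0.886. The lowest values among the vehicle regions were those of pairs with ROI 014, which had the fewest counts, and the part of its depth in them was not tested. Without ROI 014 the vehicle pairs across sections had 0.951 and 0.968, close to the entospletinib pairs. Between the sections of a group the median absolute difference in log2 CPM was 0.28 with vehicle and 0.18 with entospletinib, and 1.11% and 1.46% of probes differed over 2-fold. The median signed difference, section 1 minus section 2, was 0.21 with vehicle and 0.09 with entospletinib, so the absolute differences include a common shift of the probes.

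The single vehicle regions were set against control kidneys over the called probes. The calls came from sums in which the deeper ROIs 015 and 018 weighed more, so the choice of probes leans to them. Over all probes the median log2 levels relative to control were -0.08 in ROI 014, -0.12 in ROI 015, -0.33 in ROI 017 and -0.40 in ROI 018. The probes called higher with entospletinib had median log2 levels of -0.89 in ROI 014 and -1.54 in ROI 015 of vehicle section 1, relative to the mean of the control regions. In vehicle section 2 they had -0.88 in ROI 017 and -1.42 in ROI 018. The 4 entospletinib regions had medians between 0.07 and 0.32. The probes called lower had medians of 0.91, 1.51, 1.22 and 1.55 in the same vehicle regions and between -0.07 and 0.05 in the entospletinib regions. Without ROI 018, vehicle section 2 rested on ROI 017 alone, and 519 probes were called higher and 727 lower. Without ROI 015, vehicle section 1 rested on the shallow ROI 014, and 963 were called higher and 651 lower. Without ROI 014 itself, 877 were called higher and 875 lower.

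Entospletinib-treated tubules were compared with those of uninjured kidneys. Of 20175 probes, 0 (0.0%) were called between entospletinib on day 14 and control. By edgeR, an unadjusted p under 0.05 was found for 279, a smaller share of the probes than the 0.05 expected without any difference. TMM normalization also gave 0 calls by edgeR, where 304 probes passed without adjustment, again below that share. DESeq2 gave 7 calls, 1 of them higher and 6 lower. Leaving out entospletinib section 1 or 2 gave 1 call each, and leaving out control section 1 or 2 gave 7 or 3 calls. The median absolute log2 fold change over all probes was 0.11, with a median standard error of 0.25, and 190 probes (0.94%) differed more than 2-fold. Between vehicle on day 14 and the same control sections, the median absolute log2 fold change was 0.44, and 1996 probes (9.89%) differed more than 2-fold. Of all probes 8.06% were called there, 4.28% higher and 3.78% lower with vehicle. A lack of calls with 2 sections per group does not show that the treated and uninjured tubules were alike.

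The probes called between entospletinib and vehicle had the following values in these comparisons, which share sections with each other and with the calls. The 828 probes called higher had a median log2 fold change of 0.17 between entospletinib and control and of -1.35 between vehicle and control. The 852 probes called lower had medians of 0.00 and 1.47. More than 2-fold differences from control were found for 34 of the higher and 12 of the lower probes with entospletinib, and for 665 and 755 with vehicle.

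**Figure D3:**
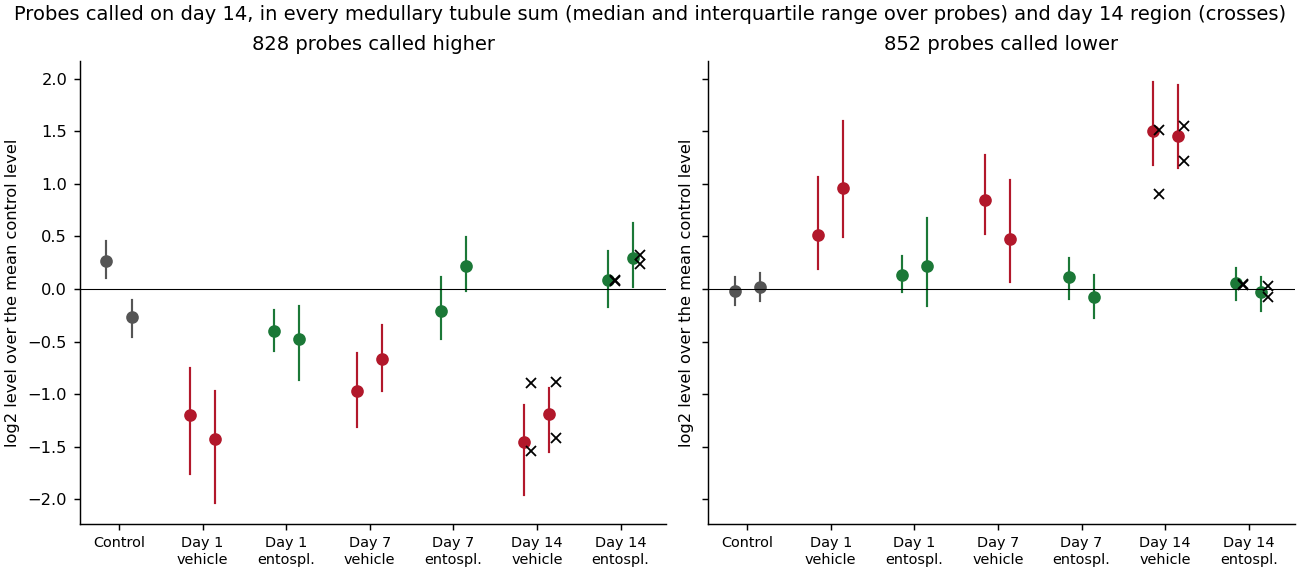
Median log2 level over the mean control level (y axis) of the 828 probes called higher and the 852 called lower on day 14, in the 2 medullary tubule sums of each of the 7 groups, with bars for the interquartile range over probes and crosses for single day 14 regions. The vehicle sums lie away from 0 on each day, at -1.46 and -1.19 for the higher and at 1.45 or more for the lower probes on day 14, and the entospletinib sums of day 14 lie between -0.03 and 0.29.

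The same probes were followed in the medullary tubules of days 1 and 7, whose sections are not those of day 14. On day 7, 816 of the 828 probes called higher on day 14 (98.6%) had a fold change above 0 with entospletinib, where this held for 72.0% of all probes, and their median log2 fold change was 0.82, against 0.26 over all probes. Of the 852 called lower on day 14, 758 (89.0%) were below 0 on day 7, where this held for 5650 of the 20175 probes, with a median of -0.66. On day 1, 785 of the higher probes (94.8%) were above 0, against 37.8% of all probes, with a median of 0.86. On that day 771 of the lower probes (90.5%) were below 0, against 62.2% of all probes, with a median of -0.54. These counts use the sign of the fold change alone, whether or not a probe passed the test on the earlier day. The probes were chosen for large differences on day 14, so the sizes of the medians cannot be compared between days in this way.

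Fewer probes passed the test on the earlier days. Those sums came from 1 medullary region per section, against 2 on day 14, and the part of this in the numbers was not tested. On day 7, 62 probes were called higher (0.307% of those tested) and 255 lower (1.26%), together 1.57%. Of these, 52 of the 62 (83.9%) and 210 of the 255 (82.4%) were among the day 14 calls in the same direction, which is 6.28% of the 828 higher and 24.6% of the 852 lower calls of day 14. On day 1, 112 were called higher (0.555%) and 184 lower (0.912%), of which 92 (82.1%) and 107 (58.2%) were among the day 14 calls, or 11.1% and 12.6% of them. No probe was called in opposite directions on day 14 and on either earlier day by these tests.

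The difference of the entospletinib effect between days was tested itself. Between day 14 and day 7 it passed an adjusted p of 0.05 for 24 probes (0.119%), all of them among the 852 lower calls, which were 4.22% of all probes. The day 14 sums enter both the difference and the calls, so this overlap is partly built in and is no further test. The 24 probes had a median log2 fold change of -2.25 on day 14 and 0.01 on day 7. This number rested on single sections. By edgeR it was 0 without entospletinib section 1 or 2 of day 14, where 974 and 606 probes had an unadjusted p under 0.05. It was also 0 without vehicle section 2 or without entospletinib section 1 of day 7, where 481 and 958 had one. It was 6 without vehicle section 1 of day 14 and 62 without vehicle section 1 of day 7. With TMM it was 151 and with DESeq2 366, mostly with a lower fold change on day 14 (150 and 362), and with the label prefix as a replicate block it was 81.

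Between day 14 and day 1, 87 probes passed (0.431%), 73 of them with a lower and 14 (0.0694%) with a higher fold change on day 14. Of the 73, 70 were among the 852 lower calls (4.22% of all probes), an overlap that the shared day 14 sums again partly build in. The 73 had medians of -2.42 on day 14 and -0.18 on day 1 on the log2 scale. Of the 14, 0 were among the calls of day 14, and their median was 0.49 on day 14 and -1.67 on day 1. Here too the number depended on single sections. By edgeR it was 0 without entospletinib section 1 of day 14, where 1928 probes had an unadjusted p under 0.05. It was 2 without entospletinib section 2 of day 14, 48 without vehicle section 2 of day 14, and 45 without vehicle section 2 of day 1. Without vehicle section 1 of day 1 it was 23, of which 20 were higher and 3 lower on day 14. TMM gave 342 and DESeq2 773. The medullary tubule sums of vehicle-treated kidneys on day 1 held 1863750 and 1235205 counts, fewer than those of the other groups.

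The named probes were placed in this course. The vehicle sums of RTS0063074 had 70.0 and 99.0 CPM on day 1, 150.9 and 80.1 on day 7 and 503.4 and 512.5 on day 14, and its entospletinib sums stayed between 28.2 and 36.0 CPM on the 3 days. Its log2 fold change with entospletinib was -1.33 on day 1, -1.80 on day 7 and -4.06 on day 14. The day 14 effect exceeded the day 1 effect by -2.73 (standard error 0.44, adjusted p = 0.0122 by edgeR), and the difference from day 7, -2.26, did not pass the test (adjusted p = 0.0642). The difference from day 1 no longer passed without entospletinib section 1 or 2 of day 14 (adjusted p = 0.110 and 0.0893 by edgeR) or without vehicle section 1 of day 1 (0.0887).

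RTS0064428 had vehicle sums of 33.5 and 48.0 CPM on day 1, 101.8 and 67.2 on day 7 and 587.1 and 398.6 on day 14, and entospletinib sums between 21.7 and 32.5 CPM. Its log2 fold change was -0.65 on day 1, -1.78 on day 7 and -3.95 on day 14. The difference between days 14 and 1 was -3.30 (standard error 0.44, adjusted p = 0.00958 by edgeR), and that between days 14 and 7 was -2.17 (adjusted p = 0.0654). The former no longer passed without entospletinib section 1 or 2 of day 14 (adjusted p = 0.0925 and 0.0785 by edgeR).

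RTS0073467 and RTS0067300 were lower in both vehicle sums than in both entospletinib sums on each of the 3 days. RTS0073467 had 33.0 and 18.7 CPM with vehicle and 77.0 and 59.2 with entospletinib on day 1, and 41.1 and 39.1 against 101.7 and 125.3 on day 7. RTS0067300 had 14.9 and 15.0 CPM with vehicle and 49.8 and 44.5 with entospletinib on day 1, and 21.5 and 28.6 against 41.6 and 56.7 on day 7. Their effects on day 14 differed from those on the earlier days by 0.19 to 1.15 on the log2 scale, and none of these 4 differences passed the test (adjusted p between 0.213 and 0.737 by edgeR).

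The cortex of the same day 14 sections, with 9 tubular segments, served to show where the medulla differed. In cortical tubules 69 probes were called higher (0.342%) and 318 lower (1.58%) with entospletinib, together 1.92%. The 828 probes called higher in the medulla had a median log2 fold change of 0.76 in the cortex, against 0.29 over all probes there, and the 852 called lower had -0.86. In the cortex 816 of the higher probes were above 0, where 72.2% of all probes were, and 833 of the lower probes were below 0, where 27.9% of all probes were. Both regions come from the same sections, and the probes were chosen for their values in the medulla.

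The difference of the entospletinib effect between medulla and cortex was tested within sections, and 118 probes (0.585%) passed an adjusted p of 0.05. The effect was higher in the medulla for 51, of which 44 were among the 828 higher calls, and lower for 67, of which 59 were among the 852 lower calls. Of all probes 4.1% were called higher and 4.22% lower in the medulla. The medullary day 14 segments enter both this test and the calls, so the overlap is partly built in and is no further test. The median log2 fold changes of the 51 probes were 1.96 in medullary and 0.48 in cortical tubules, and those of the 67 were -1.73 and -0.32. For 48 of the 51 and 66 of the 67 the effect was the larger one in the medulla. The number was 25 without vehicle section 1, 21 and 19 without entospletinib section 1 or 2, 388 without vehicle section 2 and 237 with DESeq2.

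Among the named probes only RTS0073467 passed this test. It had 53.7 and 33.2 CPM in the cortical vehicle sums and 85.5 and 94.1 in the cortical entospletinib sums. Its effect was larger in the medulla by 1.42 on the log2 scale (standard error 0.26, adjusted p = 0.0142 by edgeR). This call was lost without vehicle section 1 (adjusted p = 0.332 by edgeR) and without entospletinib section 1 or 2 (0.193 and 0.0546). RTS0063074 had 112.7 and 421.1 CPM in the cortical vehicle sums and 26.0 and 31.8 in the entospletinib sums, and RTS0064428 had 64.3 and 193.0 against 22.7 and 32.4. In the cortex, section 2 of the vehicle group was thus much higher than section 1 for both, which was not the case in the medulla. RTS0067300 had 35.5 and 19.9 against 48.2 and 51.4 CPM.

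Probes were also grouped by the compartment in which they were higher, from the control, day 1 and day 7 sections alone, so that the day 14 segments took no part in the choice. Between macrophage segments, stained for IBA1, and tubular segments, 362 probes leaned to macrophages and 48 to tubules. In medullary tubules on day 14, 243 of the 362 macrophage-leaning probes (67.1%) were called lower with entospletinib, where 4.22% of all probes were. Only 1 was called higher, and 118 were not called. The median log2 fold change of this class was -1.36, against 0.36 over all probes, and with TMM 293 were called lower. Both RTS0063074 and RTS0064428 belong to it. The number of these probes called lower lay between 158, without entospletinib section 2, and 296, with DESeq2.

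Of the 48 tubule-leaning probes, 26 (54.2%) were called higher with entospletinib, where 4.1% of all probes were, and 0 were called lower. Their median log2 fold change was 2.62, and 20 were called higher with TMM. The number was 11 with limma-voom or without ROI 018. It was 13 without vehicle section 1 or entospletinib section 2, 16 without vehicle section 2 and 17 without ROI 015. Of the probes that leaned to the cortex or the medulla in the same earlier sections, 8 of 78 cortex-leaning probes (10.3%) were called higher and 1 (1.28%) lower. Of 21 medulla-leaning probes, 0 were called higher and 3 (14.3%) lower, and among all probes 4.1% were called higher and 4.22% lower.

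The 2 compartment classes took different shares of the counts in the day 14 regions. The macrophage-leaning probes held 3.11% and 6.03% of the counts in ROIs 014 and 015 of vehicle section 1 and 4.13% and 6.05% in ROIs 017 and 018 of vehicle section 2. With entospletinib they held between 0.82% and 0.97%, and in control kidneys between 0.96% and 0.98%. The tubule-leaning probes held 0.99%, 0.24%, 0.99% and 0.35% in the same vehicle regions, between 2.81% and 3.20% with entospletinib, and 2.80% and 1.71% in control kidneys. The groups did not overlap for either class, and no member of either class was at 0 counts in any medullary tubule segment. ROIs 015 and 018, which had the highest macrophage-leaning shares, were also the regions farthest from control over the called probes above. These measures share probes, since 243 of the 852 lower calls were macrophage-leaning, so this is no further result.

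The macrophage segments of the medulla held 1155023 and 1207884 counts in vehicle sections 1 and 2 and 372276 and 228043 in the entospletinib sections. In them, the macrophage-leaning probes had a median of 118.5 and 131.7 CPM with vehicle and 59.4 and 100.1 with entospletinib, and in the tubular segments of the same sections 52.1 and 51.0 against 20.7 and 19.0. The part that macrophage transcripts in tubular segments had in the calls was not tested. Of the 852 lower calls, 609 were among the 19813 probes outside the macrophage-leaning class and 243 among the 362 inside it. Of all probes 4.22% were called lower. A probe outside the class may still be higher in macrophage segments without having passed the thresholds of the class. In bulk segments like these, fewer cells of a type and less RNA per cell cannot be told apart.

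**Figure D4:**
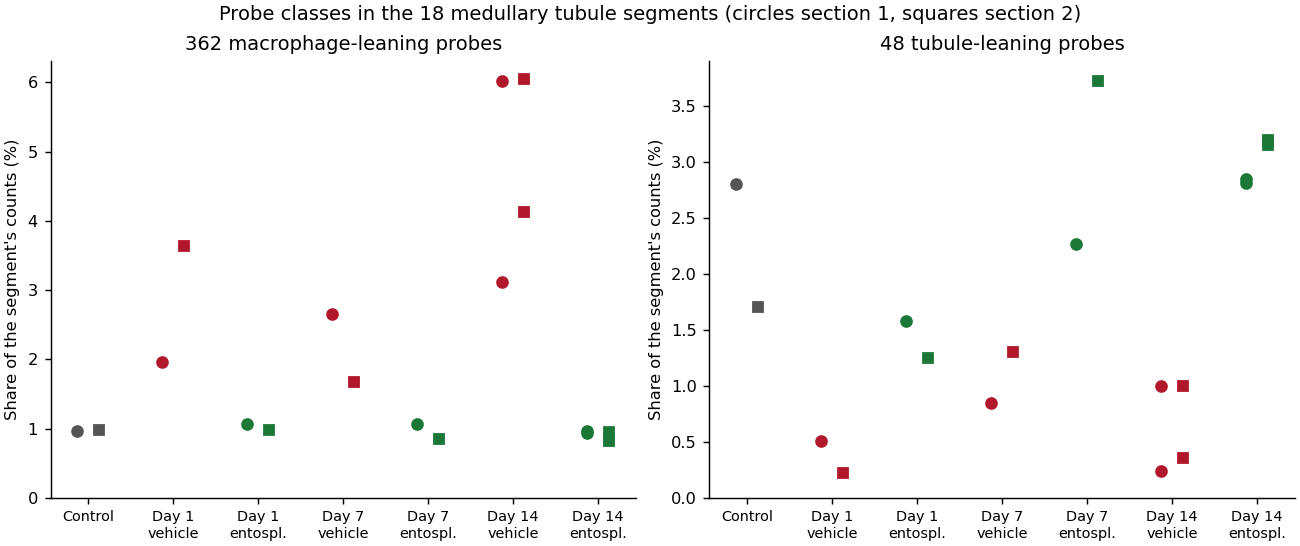
Share of a segment's counts (y axis, percent) held by the 362 macrophage-leaning and the 48 tubule-leaning probes in each of the 18 medullary tubule segments, by group, with circles for section 1 and squares for section 2. On day 14 the 4 vehicle segments lie between 3.11% and 6.05% for the first class and between 0.24% and 0.99% for the second, and the 4 entospletinib segments between 0.82% and 0.97% and between 2.81% and 3.20%.

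The number of calls was examined with each section left out in turn. A group then has 1 sum, which is assumed to vary like the other groups. Leaving out only the shallow ROI 014, which keeps 2 sums per group, gave 877 higher and 875 lower calls, near the main numbers. Without vehicle section 1, which has the shallow region, 1794 probes were called higher and 809 lower, and 1282 of the 1680 calls were among them. Without vehicle section 2 there were 426 higher and 713 lower calls. Without entospletinib section 1 there were 658 higher and 683 lower calls, and without entospletinib section 2 there were 399 and 506. The share of higher calls went from 37.4% without vehicle section 2 to 68.9% without vehicle section 1.

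**Figure D5:**
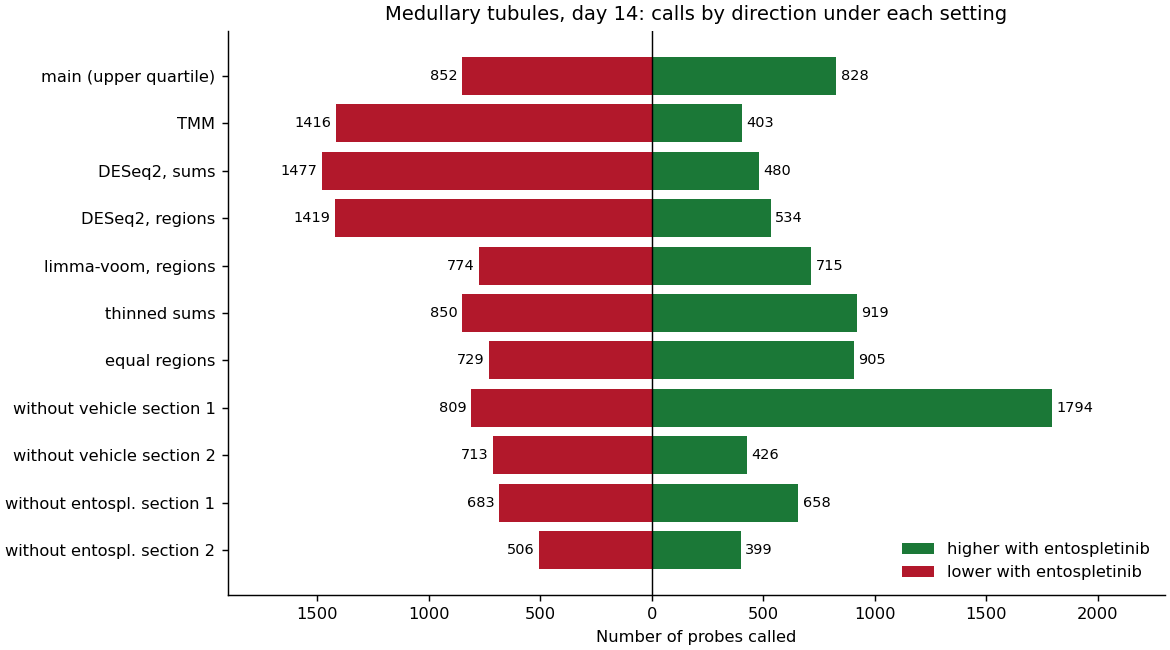
Number of probes called higher (to the right) and lower (to the left) with entospletinib in medullary tubules on day 14, under the main test and 10 alternatives. The lower calls range from 506 to 1477 and the higher calls from 399 to 1794 over these settings.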

How the data were processed

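FFPE kidney sections were profiled with the GeoMx Mouse Whole Transcriptome Atlas in segments stained for PanCK with or without CD10 (tubules) or for IBA1 (macrophages). The authors deposited counts of UMIs per probe and segment, made from the reads by the GeoMx NGS Pipeline, before their quality filters and normalization. Columns that belong to no sample of the series: 0.

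The authors left out 2 samples as outliers before normalization, which the sources used here do not name, so all segments were kept. Segments were assigned to groups by their labels. The members, classes and tests were chosen with earlier results of these data known. Counts were summed per section and region type, filtered with filterByExpr of edgeR (at least 10 counts and a total of 15), where every probe passed, and normalized by the upper quartile, as the authors did. Groups were compared by the robust quasi-likelihood test of edgeR 4.0.16 in R 4.3.3, with Benjamini-Hochberg adjustment over all probes. The 14 medullary tubule sums shared the spread, with 7 residual degrees of freedom. The test gives no standard error, so it was taken as the absolute log2 fold change over the square root of F. For differences of effects, only the adjusted p set the call. For medulla against cortex the section was in the model. The study's methods used regions as replicates in DESeq2, which was an alternative here. Compartment and region classes were called by the same test and thresholds, with the section in the model. CPM were scaled by the upper quartile, and log2 CPM used a prior count of 2, or 1 CPM for single regions and 20 CPM for macrophage segments. Among called probes, the 2 higher and the 2 lower ones of smallest adjusted p are named.

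Alternatives were TMM, DESeq2 (version 1.42.0) on sums or regions, no filter, the label prefix as a block, day 14 sums alone, limma-voom (limma version 3.58.1) with the section as a random effect, thinning to 1235205 counts, adjusted p alone, and leaving out each section or region. Thinning the regions of a section to equal totals was added after the data were seen. The scripts were tested on data simulated from the sums. The lists of genes and cell type markers drawn up for the comparison could not be used without gene names.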

Additional observations from a re-analysis of the deposited data

Results flagged for a closer look

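Of 18 groups of 4 segments that were searched for a sample far from the others, 2 held one, and chance alone gives about 1 in 20. Probe RTS0063074 had 41.5 CPM in ROI 021 of entospletinib section 2, above the 3 other entospletinib regions and below every vehicle region. The macrophage-leaning probes held 0.82% of the counts in ROI 020 of entospletinib section 2, below the 3 other entospletinib regions.

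The effect of entospletinib differed by its own test between day 14 and day 7 for 24 probes, between day 14 and day 1 for 87 and between medulla and cortex for 118. Probe RTS0063074 differed between days 14 and 1 by -2.73 and probe RTS0064428 by -3.30 on the log2 scale, with a lower fold change on day 14. Neither passed without entospletinib section 1 or 2 of day 14, and the former also not without vehicle section 1 of day 1. The fold change of probe RTS0073467 was higher in the medulla than in the cortex by 1.42 on the log2 scale, a call lost without vehicle section 1 or either entospletinib section.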

How the results depend on the processing

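The 4 named probes, picked for small adjusted p-values in the same data, kept their direction and their call under all 22 alternatives. Their log2 fold changes were 2.06 to 2.78 (RTS0073467), 1.40 to 1.99 (RTS0067300), -4.37 to -3.50 (RTS0063074) and -4.23 to -2.83 (RTS0064428). The number of calls between entospletinib and vehicle, 1680, was 3209 on the adjusted p alone, with 1822 higher and 1387 lower, and between 905 and 2603 with 1 section or region left out. The higher calls, 828, were 403 with TMM, 480 with DESeq2 on sums, 534 with DESeq2 on regions, and between 399 and 1794 with a section or region left out. The lower calls, 852, were 1416, 1477 and 1419 in the same settings, and between 506 and 932 with a section or region left out. The call of 0 probes between entospletinib and control became 7 with DESeq2, and between 1 and 7 with a section left out. For the difference between days 14 and 7, 24 probes became 151 with TMM and 366 with DESeq2, and between 0 and 62 with a section left out. For days 14 and 1, 87 became 342 with TMM and 773 with DESeq2, and between 0 and 119 with a section left out. For medulla and cortex, 118 became 237 with DESeq2, and between 19 and 388 with a section left out. The cause of these moves was not tested, apart from the missing fold threshold in the calls on the adjusted p alone. No filter gave the same numbers, since the filter removed no probe.

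The label prefix gives the groups the same section numbers, and no label says that equal numbers share an animal. ROI numbers run on through all groups within a prefix, so a prefix may mark sections handled together, which no label states. The differences between sections 2 and 1 correlated above 0.1 across probes in 11 of 21 pairs of groups. For entospletinib and vehicle of the same day r was 0.158 on day 1, 0.296 on day 7 and 0.379 on day 14. The 10 pairs without control and day 1 vehicle had 0.296 to 0.624, and the 6 pairs with control -0.509 to 0.0304. Since not every pair was above 0.1, the main test had no block, and whether the prefix pairs the sections is not settled. With the prefix as a replicate block there were 1760 calls between entospletinib and vehicle, 0 between entospletinib and control (325 at an unadjusted p under 0.05, by edgeR), 81 for the difference between days 14 and 7 and 124 for that between days 14 and 1.

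The number of sections, 2 per group, and the 588814 counts of the shallowest region limit the precision, and no detection limit was tested. Negative probes could not be told apart, so no level was set against background. Regions were chosen by the authors, and equal weight for the 2 regions of a section gave 1634 calls.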

Other observations

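The probes called in medullary tubules on day 14 were also looked up in the macrophage segments of the medulla, which were not used for the calls but come from the same sections. On the log2(CPM + 20) scale, the 828 probes higher in tubules had a median difference of 0.60 between entospletinib and vehicle in macrophage segments on day 14, with 786 (94.9%) above 0, where 50.2% of all probes were. The 852 probes lower in tubules had a median of -0.55, with 774 (90.8%) below 0, where 49.8% of all probes were. On day 7, in other sections, the medians were 0.61 and -0.84. The macrophage segments held far fewer counts than the tubular ones, and no test was made on these values.

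A single probe made up 4.80% and 5.72% of all counts in the regions of entospletinib section 1 and 7.21% and 7.40% in those of section 2, the largest share of any probe there. In the vehicle regions it made up 0.037% and 0.022% in section 1 and 1.57% and 0.44% in section 2. Its log2 fold change of 4.10 (standard error 1.59) did not pass the test (adjusted p = 0.0889 by edgeR), and it also varied within other groups, with 6838 and 1449 CPM in control kidneys and 996.1 and 13130 in vehicle-treated kidneys on day 7. On the earlier days the entospletinib sums were also above the vehicle sums. With entospletinib the probe had 13730 and 27720 CPM on day 1 and 37780 and 53020 on day 7, and with vehicle 9784 and 2703 on day 1. This probe was chosen after its values were seen.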
